A study of Mus musculus with 20 samples.

Results

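The probe sets described here were higher in skin recovering from imiquimod than in unaffected skin, but were not raised in skin injured by imiquimod on day 4. A probe set is a row of the deposited table, made from a group of probes on the array. The members were chosen by their own values in 16 arrays, with L = log2(intensity + 16) averaged over the 2 arrays of a group. Within wild-type (WT) and within conditional knockout (cKO) mice, injured recovery skin had to exceed unaffected recovery skin by at least 1 on this log2 scale and unaffected imiquimod skin by at least 0.5. Within the same genotype, injured imiquimod skin had to exceed its unaffected skin by less than 0.3. Of 35080 distinct probe sets, 21 met all limits in both genotypes. They are numbered 1 to 21 by the size of their rise in recovery skin, averaged over genotypes.

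The samples were dorsal epidermis of adult C57B6 mice, separated from the dermis with dispase. All mice are labelled Krt14cre, which places the Cre recombinase under the promoter of keratin 14, a keratin of basal epidermal cells. The groups are Grhl3 WT and Grhl3 cKO, each with 2 arrays labelled as biological replicates in each of 5 conditions, 20 arrays in all. The conditions were wax-stripped skin on day 4 (labelled male), unaffected and injured skin of the imiquimod experiment on day 4 (labelled female), and unaffected and injured skin in recovery from imiquimod on day 8 (labelled male). The wax arrays took no part in the choice of members. The wax experiment has no unaffected skin of its own among the arrays used here. The labels do not say whether unaffected and injured areas came from the same mice, and p-values measure the spread between these samples.

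Imiquimod is an agonist of a Toll-like receptor. On mouse skin it draws in immune cells and gives a psoriasis-like thickening and scaling of the epidermis, which subsides once the cream is stopped. Wax stripping tears off the cornified layer and is followed by proliferation and re-differentiation of keratinocytes as the barrier is rebuilt. Grhl3 encodes a grainyhead-like transcription factor that acts in keratinocyte differentiation, barrier formation and wound closure.

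The probe sets could not be named. Of the 21 member IDs, 13 are listed in the probe table of the platform. The probe table of the platform labels 205 IDs as ribosomal protein genes, which every cell uses, and their median lay at percentile 54.6 of the mean signal. It labels 1134 IDs as olfactory receptor genes, mostly silent outside the nose, and their median lay at percentile 52.3. The IDs are therefore used as row labels only, and the tissue could not be checked against keratin or other cell type markers. Median intensity per array lay between 169 and 200 units. In 5 probe sets, none of them a member, the 8 female-labelled arrays did not overlap with the 8 male-labelled arrays of wax and unaffected recovery skin, and the gaps were 3.67 to 6.74 (log2). Only gaps above 3 were sought. Each of the 4 injured recovery arrays lay nearer to the female-labelled level in all 5, against its male label. Injured recovery skin enters the rule for every member, and the part of this discrepancy in the members' values was not tested. For 0 of the 21 members did those 8 female and 8 male arrays separate by a gap of any size, and the share of all probe sets that did was not counted. The male arrays join wax-stripped with unaffected recovery skin, which differ for many members, so this count says little about sex.

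The rise in injured over unaffected recovery skin ran from 1.03 to 3.18 in WT (median 1.51) and from 1.05 to 8.23 in cKO mice (median 1.3), against medians of -0.07 and -0.1 over all 35080 probe sets. These differences were the basis of the choice and carry no test. The 2 injured recovery arrays lay above all 4 unaffected arrays of their genotype in 20 of 21 members in WT and in 20 of 21 in cKO mice. The same held for 19.1% and 20.7% of all probe sets. The exceptions were member 1 in WT and member 7 in cKO skin. Injured imiquimod skin differed from its unaffected skin by -2.03 to 0.26 in WT (median -0.09) and by -0.76 to 0.3 in cKO mice (median -0.18). The medians over all probe sets were 0.01 in WT and 0 in cKO mice. The rule limits this difference only from above, and 6 members in WT and 8 in cKO skin lay 0.3 or more below unaffected skin. The share of all probe sets this low was not counted.

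**Figure D1:**
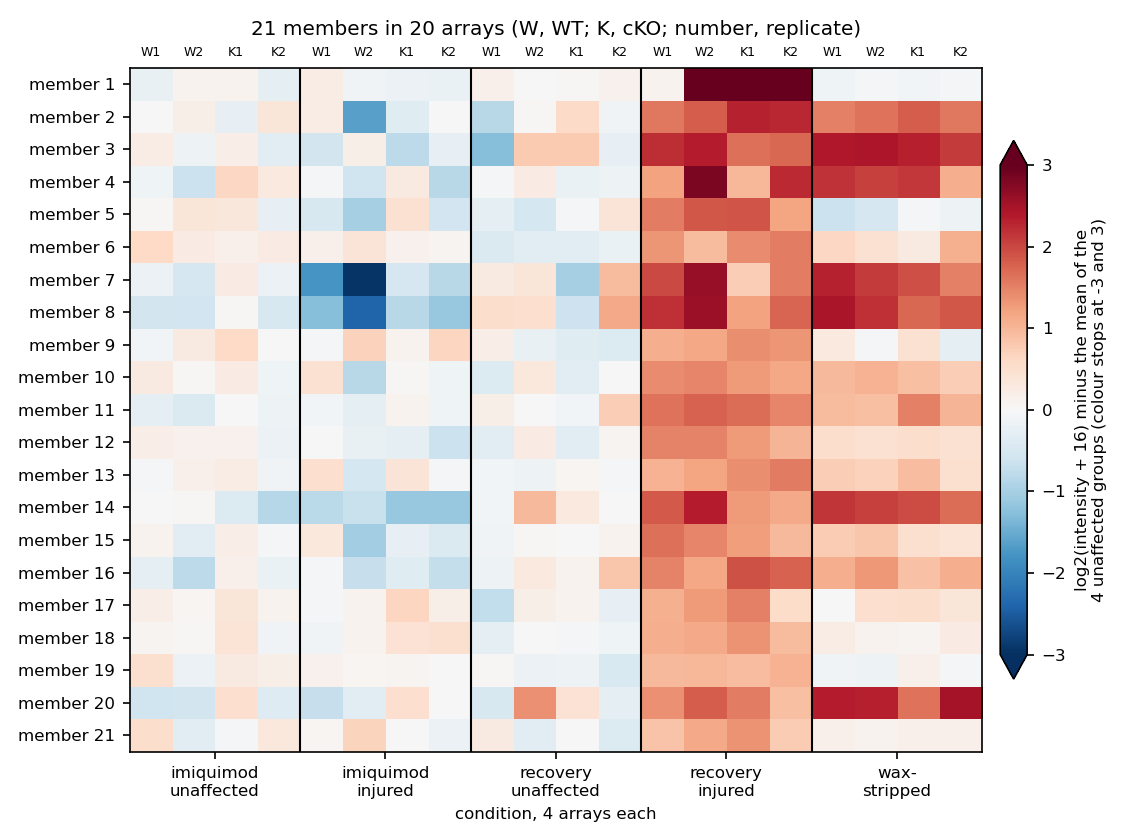
Each cell is a member (rows) in an array (columns), coloured by log2(intensity + 16) minus the mean of the member's 4 unaffected groups, with red above and blue below. Injured recovery skin is red in nearly every cell, member 1 in WT replicate 1 is not, and wax-stripped skin is red for some members, such as 3, 8 and 20, and near white or pale blue for others, such as 5, 19 and 21.

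Member 1, row 10493984, had the largest difference and the widest spread within a group. In injured recovery skin it read 16.2 and 2480 intensity units in the 2 WT arrays and 3830 and 23300 in the 2 cKO arrays. In the other 16 arrays it read 8.61 to 19.1. WT replicate 1 was thus at the level of all unaffected, imiquimod and wax arrays, while the other 3 injured recovery arrays were far above it. The log2 difference between injured and unaffected recovery skin was 3.18 in WT and 8.23 in cKO mice, and with an SD of 4.44 (n = 2) in injured WT skin the WT value rests on replicate 2. Its mean signal fell under the filter on dim probe sets described below. Fitted without that filter, injured cKO skin exceeded injured WT skin by 5.06 ± 1.33 (SE), which limma did not call (adjusted p = 0.137).

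Members 2 and 3 had the next largest differences and were also high after wax stripping. Member 2, row 10578872, read 728 and 865 in injured WT and 1220 and 1190 in injured cKO recovery skin, against 125 and 239 and 356 and 217 in unaffected recovery skin. In wax-stripped skin it read 702 and 759 in WT and 862 and 731 in cKO mice. Its wax and injured recovery arrays overlapped in WT skin but not in cKO skin, and all of them lay above every unaffected array.

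Member 3 read 1180 and 1310 in injured WT and 789 and 836 in injured cKO recovery skin. In wax-stripped skin it read 1340 and 1360 in WT and 1270 and 1080 in cKO mice. Unaffected recovery skin read 90.9 and 426 in WT and 430 and 201 in cKO mice, and unaffected imiquimod skin 284 and 214 and 280 and 191. Its wax arrays were the highest of all in both genotypes. Member 4, a dim probe set, read 80.1 and 279 in injured WT and 67.5 and 181 in injured cKO recovery skin, with 171 and 155, and 166 and 73.1, after wax stripping. Its 8 unaffected arrays lay between 10.7 and 48.1, and did not overlap with the injured recovery or wax arrays.

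Members 5 and 6 complete the 6 largest rises and differed from members 2 to 4 in wax-stripped skin. Member 5 read 401 and 505 in injured WT and 513 and 310 in injured cKO recovery skin, and 74.9 and 84.5, and 124 and 113, after wax stripping. Its 8 unaffected arrays lay between 82.3 and 172, so the wax arrays lay within or below their range. Member 6 read 1330 and 1020 in injured WT and 1420 and 1550 in injured cKO recovery skin. Its wax arrays, at 815 and 716 in WT and 629 and 1110 in cKO mice, lay above unaffected recovery skin (381 to 452) and reached into or above the range of unaffected imiquimod skin (585 to 797).

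Members 7 and 8 were lower in injured than in unaffected imiquimod skin on day 4. Member 7 read 470 and 370 in unaffected and 143 and 55.1 in injured imiquimod skin of WT mice, a difference of -2.03. In cKO mice it read 633 and 466 in unaffected and 368 and 292 in injured skin. Injured recovery skin read 2140 and 3330 in WT and 892 and 1560 in cKO mice, and wax-stripped skin 2670 and 2320, and 2080 and 1540. In cKO mice the unaffected recovery arrays read 258 and 1040, so the lower injured array lay between them.

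Member 8 read 500 and 498 in unaffected and 298 and 128 in injured imiquimod skin of WT mice, a difference of -1.28. Injured recovery skin read 3430 and 4470 in WT and 1750 and 2550 in cKO mice, and wax-stripped skin 4130 and 3470, and 2510 and 2760. For both members the lowest levels were those of injured imiquimod skin in WT mice, and wax and injured recovery skin overlapped in both genotypes. Most of the 21 members were not lowered in this way, since 15 in WT and 13 in cKO skin lay within 0.3 of unaffected imiquimod skin. The rule sets the upper limit of 0.3, and the share of all probe sets within 0.3 was not counted.

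**Figure D2:**
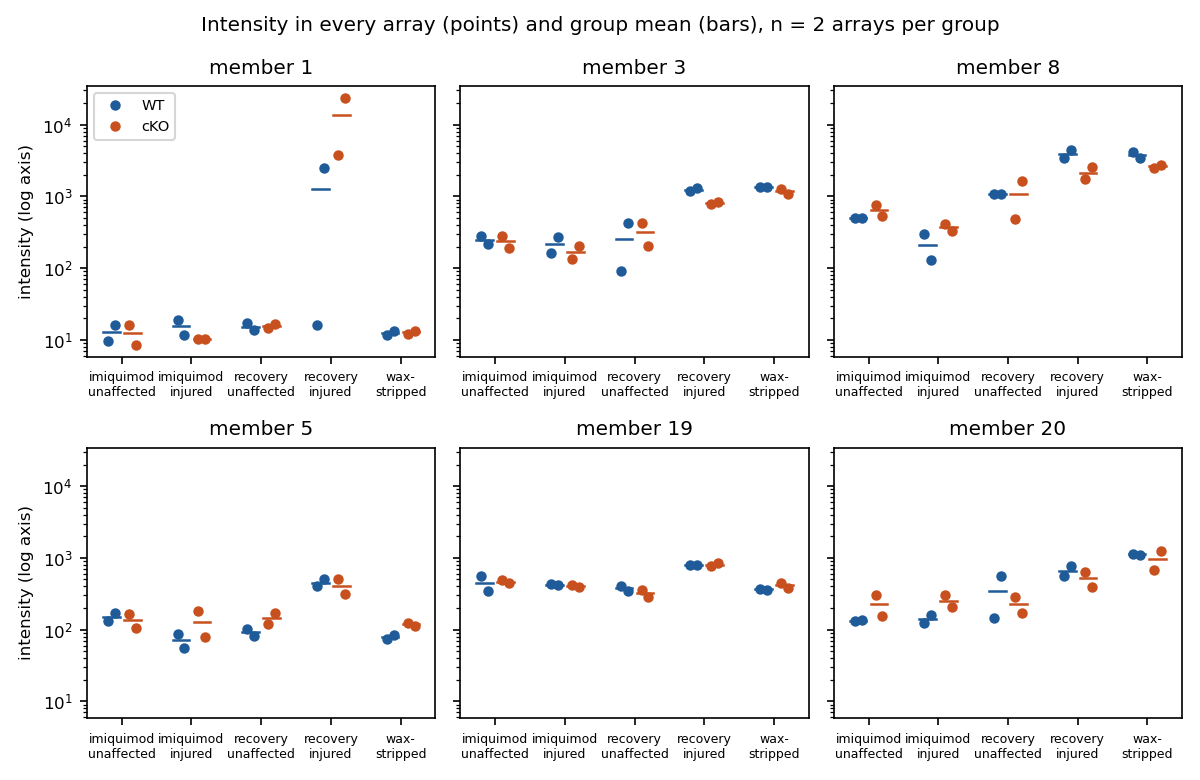
Intensity of 6 members on a log axis in every array (points) with the mean of each group of 2 (bars), WT in blue and cKO in orange. Members 3, 8 and 20 are near or above their injured recovery level after wax stripping, members 5 and 19 are not raised after wax stripping, and member 1 leaves its floor in 3 of the 4 injured recovery arrays.

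The remaining members had smaller differences. Member 10 read 2970 and 3100 in injured WT and 2690 and 2490 in injured cKO recovery skin, against 821 to 1380 over its 8 unaffected arrays. Member 12 read 2920 and 2930, and 2540 and 2110, against 826 to 1240. Both had wax arrays in between, at 2200 and 2280 and 2080 and 1850 for member 10, and at 1500 and 1440 and 1500 and 1420 for member 12. Member 19 read 791 and 801 in injured WT and 770 and 837 in injured cKO recovery skin, and no other array was above 558.

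In wax-stripped skin members 14 and 20 reached the level of injured recovery skin. Member 14 read 722 and 674 in WT and 640 and 518 in cKO mice after wax stripping, against 581 and 838 and 392 and 351 in injured recovery skin. Member 20 read 1120 and 1110 in WT and 675 and 1240 in cKO mice after wax stripping, against 562 and 764 and 633 and 399. Its unaffected WT recovery arrays read 143 and 558, so their upper value came close to the lower injured one. Members 9, 11, 13, 15, 16, 17, 18 and 21 had rises of 1.03 to 1.74. Member 21, a dim probe set, read 99.9 and 125 in injured WT and 146 and 93 in injured cKO recovery skin, against 31.9 to 76.7 over its 8 unaffected arrays. Its wax arrays, at 53 to 55.5, lay within that range.

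The rule drew a line close to other probe sets. The members nearest to the limit of 1 were member 21, whose smaller rise was 1.03, and member 19, at 1.04. Of the probe sets that met the other limits in both genotypes, the nearest outside reached 0.999 and 0.981 in the genotype with the smaller rise. With each of the 16 arrays left out in turn, 3 members met the rule every time, 14 members 14 or 15 times, and 4 members (9, 17, 20 and 21) 10 or 11 times. The number of probe sets that met it ranged from 17 to 34, the latter without unaffected imiquimod cKO replicate 2. With a pseudocount of 1 in place of 16 it was 36, which included 19 of the 21.

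Wax-stripped skin, which the rule did not use, was also above unaffected skin for many members. The 2 wax arrays lay above all 4 unaffected arrays in 14 of 21 members in WT and in 14 of 21 in cKO skin, against 15.1% and 11.8% of all probe sets. The same 13 members did so in both genotypes, and 6 did so in neither. Tests were made for the 16 members that passed a filter on dim probe sets (mean log2 signal at or above the 25th percentile), while members 1, 4, 9, 18 and 21 did not pass it. The fit, limma over all 26310 probe sets that passed, used all 20 arrays and an adjusted p under 0.05. The unaffected and injured recovery arrays on the other side of these comparisons helped to choose the members, so the counts are not independent of the rule.

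Against unaffected recovery skin, wax-stripped skin was called higher in 11 of the 16 members in WT and 10 in cKO mice, with 10.8% and 12.1% of all probe sets called higher. The recovery arrays are of day 8 and of another experiment than the wax arrays of day 4. Injury, day and experiment therefore cannot be told apart here. The median differences of the 16 were 0.99 and 0.93. The WT count became 4 and 3 without wax replicate 1 or 2 and 2 without unaffected recovery replicate 1. The cKO count became 3 without either wax replicate, 5 and 6 without unaffected recovery replicate 1 or 2, and 6 with only the arrays of the comparison. Member 3 had the largest difference in WT skin, 2.65 ± 0.5 (SE, adjusted p = 0.00271), with 1.93 ± 0.5 in cKO skin (adjusted p = 0.0131). Without unaffected recovery replicate 1 the WT difference was 1.63, below those of members 7 (1.83) and 8 (1.81). The WT call ended with only the arrays of the comparison, and the cKO call ended without wax replicate 1 or unaffected recovery replicate 2. Member 20 had the largest in cKO skin, 1.98 ± 0.5 (SE, adjusted p = 0.011), with 1.9 ± 0.5 in WT skin (adjusted p = 0.0163). Its WT call ended without either wax replicate, with only the arrays of the comparison and without unaffected recovery replicate 1, where the difference was 0.98. Its cKO call ended without wax replicate 2 or unaffected recovery replicate 2. The calls of members 7 and 8 in WT skin ended without any 1 of the 4 arrays compared. Member 14, at 1.64 and 1.66 ± 0.26 (SE, adjusted p = 0.000974 and 0.000603), kept its call in WT and cKO skin without any 1 of the arrays compared.

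Unaffected imiquimod skin is of day 4, like the wax arrays, but differs from them in labelled sex and experiment. Against it, 8 of the 16 were called higher in WT and 8 in cKO mice, with 9.23% and 10.8% of all probe sets called higher. In WT skin member 20 differed by 2.92 ± 0.5, member 8 by 2.88 ± 0.45 and member 7 by 2.53 ± 0.51 (SE, adjusted p = 0.00168, 0.000961 and 0.00454). In cKO skin member 14 differed by 2.45 ± 0.26, member 3 by 2.26 ± 0.5 and member 8 by 2.02 ± 0.45 (SE, adjusted p = 4.03e-05, 0.00568 and 0.0057). Each of these 6 calls was kept without any 1 of the arrays compared. The cKO count became 4 without wax replicate 2 and 5 without unaffected imiquimod replicate 2. The 7 members 2, 3, 7, 8, 11, 14 and 20 passed against both unaffected skins in both genotypes. Of these, member 14 kept all 4 calls without any 1 of the arrays compared, and the other 6 each lost at least 1 call. Member 2 against unaffected imiquimod skin in WT, member 7 against it in cKO mice, and member 11 against unaffected recovery skin in WT mice lost the call whichever of the 4 arrays was left out. With all arrays, wax-stripped skin was called higher too in these 7, so the label of a rise in recovery only is in doubt for them. The label is not settled for the others, since 12 of the 16 were called higher after wax in at least 1 comparison with unaffected skin. The rule chose members low in both unaffected skins relative to injured recovery skin, which favours such calls. The comparisons share the wax arrays.

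Wax-stripped skin was called lower than injured recovery skin in 4 of the 16 members in WT and 4 in cKO mice, against 5.61% and 6.85% of all probe sets. The rule chose the members high in these injured recovery arrays, which favours calls in this direction. The share of all probe sets is therefore no like reference. Injured recovery skin also differs from the wax arrays in day and experiment. It lay nearer to the female-labelled level in the probe sets that parted the labelled sexes. Members 5, 12 and 19 were called in both genotypes. Member 5 differed by -2.29 ± 0.32 in WT and -1.63 ± 0.32 in cKO skin (SE, adjusted p = 0.000784 and 0.00925), and member 19 by -1.1 ± 0.17 and -0.94 ± 0.17 (SE, adjusted p = 0.0013 and 0.00609). After wax stripping neither was called above either unaffected skin. Both kept the WT call without any 1 of the arrays, and both lost the cKO call without wax replicate 2 or injured recovery replicate 1. Member 12 differed by -0.98 ± 0.19 and -0.66 ± 0.19 (SE, adjusted p = 0.00541 and 0.0424), and in cKO skin its wax arrays were called above unaffected recovery skin by 0.6 ± 0.19 (SE, adjusted p = 0.0361). That call ended without either wax replicate or unaffected recovery replicate 1, with only the arrays of the comparison and without the 4 injured recovery arrays. The call of member 12 below injured cKO skin ended without any 1 of the 4 arrays, after quantile normalization, without the filter and with only the arrays of the comparison. Member 6 in cKO skin differed by -0.82 ± 0.21 (SE, adjusted p = 0.0265), a call that ended without either injured recovery replicate, after quantile normalization, with only the arrays of the comparison and without wax replicate 1, where the difference was -0.42. Member 11 in WT skin differed by -0.76 ± 0.22 (SE, adjusted p = 0.0381), and its call ended without any 1 of the 4 arrays and without the filter.

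The number of these calls varied with the arrays used. The cKO count became 2 and 1 without wax replicate 1 or 2, 0 and 2 without injured recovery replicate 1 or 2, and 2 after quantile normalization. In WT skin 3 members were called when any single array was left out, and 7 when the fit held only the 4 arrays compared. Of the 5 dim members, fitted without the filter, member 1 was called lower after wax in cKO skin, by -8.36 ± 1.33 (SE, adjusted p = 0.00524). Member 9 was called lower in cKO skin, by -1.27 ± 0.29 (SE, adjusted p = 0.0259). Member 4 was called above unaffected recovery skin after wax stripping, by 2 ± 0.52 in WT and 1.79 ± 0.52 in cKO skin (SE, adjusted p = 0.0226 and 0.0335). Member 18 was called lower in both genotypes, by -0.95 and -0.99 ± 0.16 (SE, adjusted p = 0.00378 and 0.00621). The rule chose these members high in injured and low in unaffected recovery skin, which favours all of these calls. The share of all probe sets called without the filter is not given here, so the calls are a description only.

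**Figure D3:**
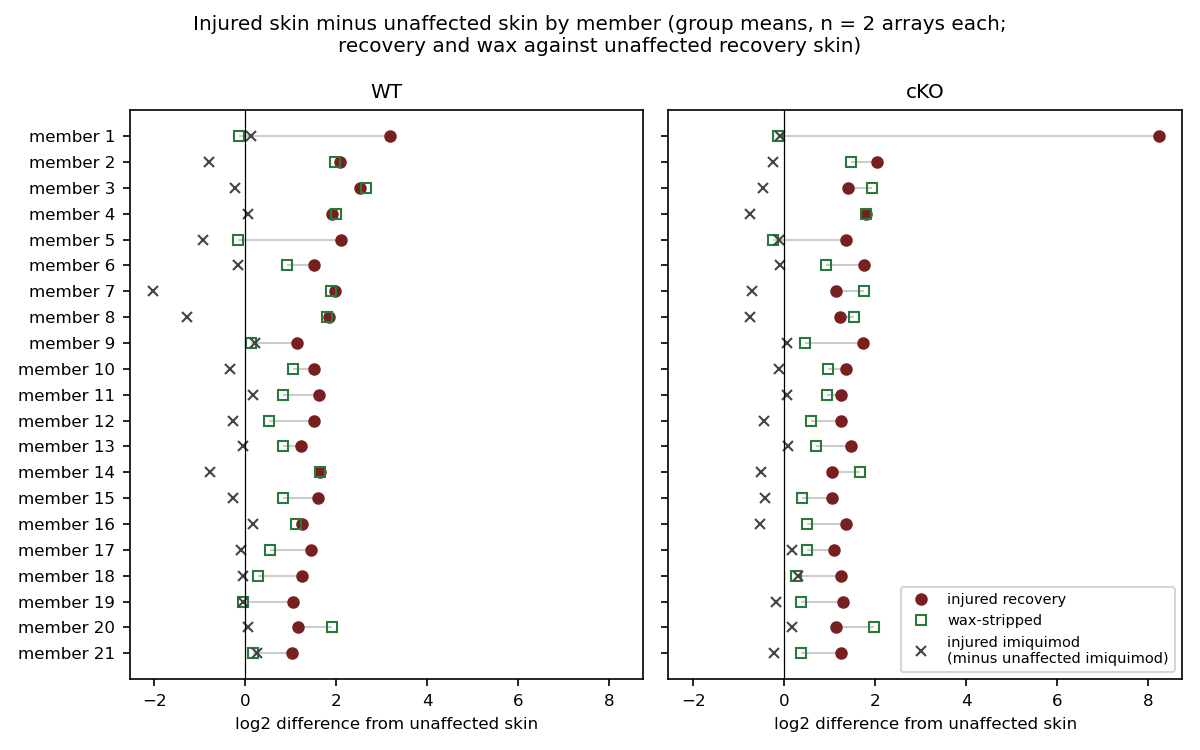
Log2 difference from unaffected skin for each member in WT (left) and cKO mice (right), as group means of 2 arrays: injured recovery skin (filled circles) and wax-stripped skin (open squares) against unaffected recovery skin, and injured imiquimod skin (crosses) against unaffected imiquimod skin. Squares meet the circles for members such as 3, 4 and 8 and stay near 0 for members 1, 5 and 19, and the crosses lie at or below 0.3 by the rule.

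By the size of the wax difference the members fell into 3 sets of 7, formed after the values were seen and therefore without a test. In members 2, 3, 4, 7, 8, 14 and 20 wax-stripped skin exceeded both unaffected skins by at least 1 in both genotypes. Their median imiquimod difference on day 4 was -0.77 in WT and -0.51 in cKO skin. Over both genotypes it ranged from -2.03 to 0.18, so not all of these members were lowered. In members 1, 5, 9, 17, 18, 19 and 21 wax-stripped skin exceeded at least 1 of the unaffected skins by less than 0.3 in both genotypes, and the median imiquimod difference was -0.06 in WT and -0.1 in cKO skin. Only 3 of these 7 passed the filter on dim probe sets, against 6 of the 7 raised after wax and 7 of the 7 others. In those others the median imiquimod difference was -0.16 in WT and -0.11 in cKO skin. The range was -0.93 to 0.3 in the 7 not raised after wax and -0.52 to 0.17 in the others. The part of signal level in this division was not tested.

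The genotype comparison asked whether loss of Grhl3 altered the members. The rule had to be met in both genotypes on the recovery and imiquimod arrays, so it favoured probe sets with like differences in both, and of the conditions only wax-stripped skin is free of it. In wax-stripped skin 0 of the 16 members were called by limma (0 at an unadjusted p under 0.05), against 0.27% of all probe sets, and their differences lay between -0.52 and 0.49. In unaffected imiquimod skin 0 were called (1 unadjusted), against 0.0076%, and in unaffected recovery skin 0 (0 unadjusted), against 0% of all probe sets. In injured imiquimod skin 0 were called (1 unadjusted), against 0.137%. The largest difference there was that of member 7, at 1.69 ± 0.51 in cKO minus WT skin (SE, adjusted p = 0.303).

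In injured recovery skin 0 of the 16 were called (2 unadjusted), against 1% of all probe sets. Of the 16, 11 were lower and 5 higher in cKO skin, with a median of -0.2 and a range of -1.17 to 0.59. Member 7 differed by -1.17 ± 0.51 and member 14 by -0.88 ± 0.26 (SE, adjusted p = 0.346 and 0.161). Fitted without the filter, the 5 dim members were not called either. The rise from unaffected to injured recovery skin in cKO minus that in WT mice lay between -1.12 and 0.26 over the 16. Over the 5 dim members it lay between -0.11 (member 4) and 5.05 (member 1). Its test is not read here, since the rule required a rise of at least 1 in each genotype and so left out probe sets that rose in only 1 of them.

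Averaged over the 5 conditions, 0 of the 16 were called (2 unadjusted), against 1.49% of all probe sets. Member 14 came closest, with a mean difference of -0.5 ± 0.12 (SE, adjusted p = 0.0581), and was lower in cKO skin in 5 of 5 conditions. The share of all probe sets with the same direction in every condition was not counted. Member 14 was called with a filter at the 50th percentile (adjusted p = 0.044) and with trend and robust settings in eBayes (adjusted p = 0.0464). It was not called with either other pseudocount, after quantile normalization or without the filter. Neither was it called with only the arrays of the comparison or with the replicate block. The mean difference was -0.6 without unaffected recovery WT replicate 1, -0.39 without unaffected recovery WT replicate 2 and -0.55 without injured recovery WT replicate 1. Member 14 was called in these cases, and not when any other single array was left out.

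**Figure D4:**
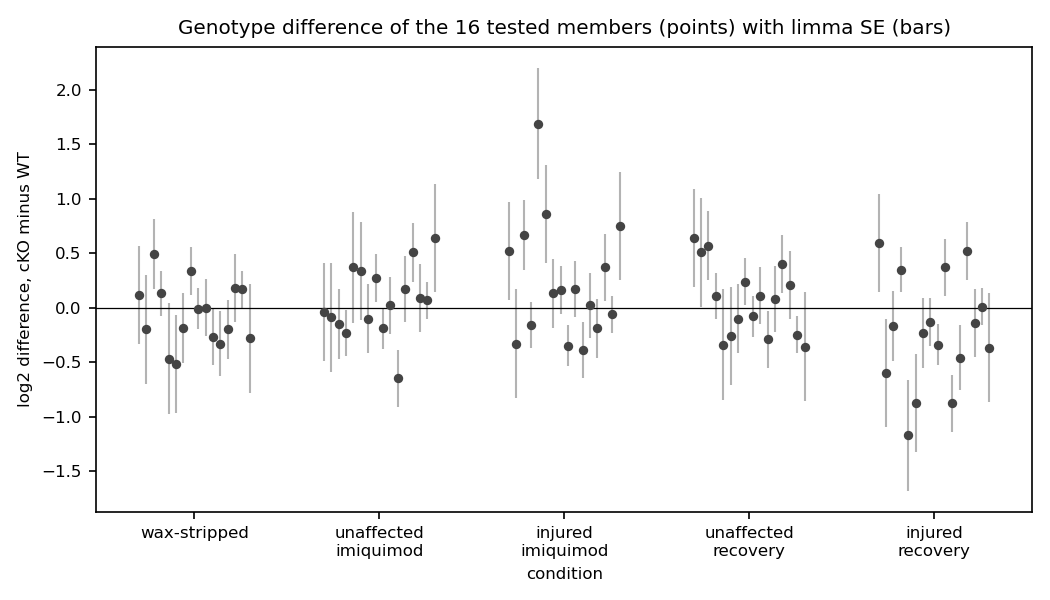
Log2 difference between cKO and WT mice for the 16 tested members (points, in order of member number) with the limma SE (bars) in each of the 5 conditions. In wax-stripped skin the points lie between -0.52 and 0.49 and in unaffected recovery skin between -0.36 and 0.64, and the largest values are those of member 7, at 1.69 in injured imiquimod and -1.17 in injured recovery skin.

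Part of the rule could be checked between the genotypes, which share no arrays. It was met by 142 probe sets in WT and by 146 in cKO mice, and the 21 in common are 14.8% of the first list and 14.4% of the second. Of the 142 chosen on WT arrays, 121 were higher in injured than in unaffected recovery skin of cKO mice, with a median difference of 0.78, against 41.2% of all probe sets above 0. Of the 146 chosen on cKO arrays, 140 were higher in WT mice, with a median of 0.68, against 40.9% of all above 0. Of the 121 WT probe sets that did not meet the rule in cKO mice, 95 had a recovery difference under 1, 45 lay less than 0.5 above unaffected imiquimod skin and 44 had an imiquimod difference of 0.3 or more there. Of the 125 cKO probe sets these numbers were 107, 60 and 37 in WT mice, so the limit of 1 was missed most often in both directions.

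The lists were then tested in the genotype that had not chosen them, for the level of injured recovery skin only. The limit on the imiquimod difference was not tested there. The share called among all probe sets raised in recovery, whatever their imiquimod difference, was not counted. The tests thus show how often a rise in recovery recurred, not whether it was confined to recovery. Of the 112 WT probe sets that passed the filter, 64 (57.1%) were called higher in injured than in unaffected recovery skin of cKO mice, where 23.5% of all probe sets were. Of the 100 cKO probe sets that passed, 50 (50%) were called higher in WT mice, where 16.1% were. Against unaffected imiquimod skin, 65 of the 112 were called higher in cKO mice, where 17.9% of all were, and 52 of the 100 in WT mice, where 14.8% were. The 65 became 36 without unaffected imiquimod cKO replicate 2 and 43 without injured recovery cKO replicate 1, and the 52 became 33 without unaffected imiquimod WT replicate 2. In both genotypes the injured recovery arrays are those that did not follow their labelled sex in the 5 probe sets above.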

How the data were processed

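The deposited value of each probe set is a linear intensity. The submitters' processing notes name Affymetrix Expression Console and PLIER, with versions and scaling not given in the sources used here. Arrays hold no count depth, and their number limits the precision. Of 35556 rows, 35080 distinct ones were kept. The rule was applied to log2(value + 16). A fold change on this scale understates the change of dim rows.

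Tests used limma 3.58.1 in R 4.3.3 (lmFit, eBayes) on 26310 rows at or above the 25th percentile of mean log2 signal (6.59), with 10 group means, 10 residual degrees of freedom and Benjamini-Hochberg adjustment per comparison, over 17 comparisons. The fit was tested on simulated data. Members and lists were chosen with earlier results of these data known. Members described by their arrays are the 6 largest rises, the 3 brightest in injured recovery skin (1, 8 and 10), the largest called differences and those nearest the limit of 1. Member 12 is among the called ones. Planned gene lists and cell type markers were not used, since IDs could not be trusted as names. Alternatives were pseudocounts of 1 and 64, quantile normalization, filters, eBayes settings, fewer arrays, other limits and the replicate number as a block.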

Additional observations from a re-analysis of the deposited data

Results flagged for a closer look

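In member 4 the difference between the 2 kinds of unaffected skin ran in opposite directions in the genotypes, with no overlap of arrays. In WT mice unaffected recovery skin read 24.5 and 33.5 and unaffected imiquimod skin 22.1 and 10.7, while in cKO mice they read 20.3 and 21.4 and 48.1 and 34.9. The difference in cKO minus that in WT mice was -1.12 on the log2 scale. It was picked out because all arrays moved one way in WT and the other way in cKO mice. The search covered all 21 members and several comparisons of conditions, so a case of this kind can arise by chance. The share of all probe sets with such a pattern was not counted. The probe set did not pass the filter on dim signal, and the difference between the genotypes was not tested.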

How the results depend on the processing

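The number of probe sets that met the rule was 21, with 36 for a pseudocount of 1, 4 for a recovery limit of 1.5, 11 for an imiquimod limit of 0, and 17 to 34 with 1 array left out. Counts of called members changed by more than 1.5 times in these cases. Wax minus unaffected recovery skin gave 2 to 8 in WT (11 with all arrays) and 3 to 6 in cKO skin (10 with all) with 1 array left out, and 6 in cKO skin with only its arrays. Wax minus unaffected imiquimod skin in cKO mice gave 4 to 7 (8 with all). Wax minus injured recovery skin gave 7 in WT skin with only its arrays, and in cKO skin 2 after quantile normalization and 0 to 2 with 1 array left out (4 with all). Where a group was left with 1 array, that array is assumed to vary like the others. The mean genotype difference called 1 member with the filter at the 50th percentile, 1 with trend and robust settings, and 0 to 1 with 1 array left out. For the lists tested in the other genotype against unaffected imiquimod skin, counts were 36 to 64 in cKO (65 with all) and 33 to 49 in WT mice (52 with all). No call of a member changed direction. Of 392 refits of single called members under settings other than leaving out an array, 372 kept the call; of 180 with 1 array left out, 98 did. With the replicate block, wax minus unaffected recovery skin called 12 members in WT and 11 in cKO skin. The replicate differences of 2 groups correlated at -0.26 to 0.29 over 45 pairs of groups (median 0.02). For injured and unaffected recovery skin the correlation was 0.03 in WT and 0.06 in cKO mice. For injured and unaffected imiquimod skin it was -0.18 in WT and -0.04 in cKO mice. These correlations cannot tell whether the areas came from the same mice.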

Other observations

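Some members varied widely between the 2 arrays of unaffected recovery skin. The SD on the log2 scale was 1.45 for member 3 (90.9 and 426 intensity units) and 1.31 for member 20 (143 and 558) in WT mice. In cKO mice it was 1.38 for member 7 (258 and 1040) and 1.24 for member 8 (478 and 1660). Over all 21 members and both genotypes these are the 4 widest pairs of unaffected recovery arrays, and the next was 0.74.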
